A study of Mus musculus with 20 samples.

Results

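Aminoacyl-tRNA synthetases and the genes that supply them with amino acids were followed in the gastrocnemius, the large muscle of the calf, after mice received a myostatin antibody. The set was chosen by gene symbol and holds 34 genes, namely 20 cytosolic synthetase genes, 5 amino acid transporter genes, 5 enzymes of asparagine, serine and folate metabolism and 4 factors of the amino acid stress response. Of these, 33 had a probe set that the array annotation assigns to 1 gene, among 18193 such genes in all, and all 33 lay above the filter on dim probe sets that left 11200 genes for testing. Dars had no such probe set and is not analysed here, and Mars appears under its current symbol Mars1.

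The JA16 group held 10 samples from mice injected into the peritoneum with the anti-myostatin antibody JA16, at 0.12 mg per g body weight on day 1 and 0.09 mg per g on day 3. The Saline group held 10 samples from mice given saline as the control, and the mice were killed on day 5. Myostatin is a secreted inhibitor of muscle growth that the antibody binds. The labels give no strain, sex or age, and do not say that each sample came from its own mouse, so a p-value here reflects only how far these samples vary, which may be technical in part. RNA was amplified, labelled and hybridised to 20 Affymetrix mouse arrays, and each array gives 1 linear MAS5 intensity for every probe set.

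A cytosolic aminoacyl-tRNA synthetase joins 1 kind of amino acid to its tRNAs, and the charged tRNAs feed the ribosome. When amino acids run short, uncharged tRNA activates a kinase that phosphorylates the initiation factor eIF2. General translation then slows, while translation of the transcription factor ATF4 increases. ATF4 with C/EBP partners raises many synthetase, transporter and amino acid synthesis genes through a promoter element, and also the stress genes Ddit3, Trib3 and Chac1. Skeletal muscle is the main protein store of the body.

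The promoters of several of these genes held the core of the ATF4 element. The core was searched as TGATGNAA on both strands in RefSeq windows of 300 bases (GRCm38.p6), from 250 before to 50 after an annotated start. Windows of 25 of the 33 genes were used, and none of Cars, Hars, Lars, Nars, Rars, Vars, Wars and Slc7a5. Part of this came from the selection of windows, and whether those genes hold a match was not examined. Of the 25 genes searched, 8 held a match, against 4.51% of the 27025 genes in the table. They were the synthetase genes Aars, Gars, Iars, Tars and Yars, the asparagine synthetase gene Asns, and the stress genes Trib3 and Chac1. A match was present in 3.97% of all windows. The shares over all genes and all windows were not limited by the selection that left the 25 genes. They therefore do not rest on a like set. The 4 windows below are shown because they belong to the synthetase gene that was higher in JA16 in all 10 pairs, to the well-known ATF4 target Asns and to the stress genes with the most negative log2 fold changes of the set, with the match in capitals and each sequence on the strand of its gene.
Aars, chr8:111033592-111033891, plus strand: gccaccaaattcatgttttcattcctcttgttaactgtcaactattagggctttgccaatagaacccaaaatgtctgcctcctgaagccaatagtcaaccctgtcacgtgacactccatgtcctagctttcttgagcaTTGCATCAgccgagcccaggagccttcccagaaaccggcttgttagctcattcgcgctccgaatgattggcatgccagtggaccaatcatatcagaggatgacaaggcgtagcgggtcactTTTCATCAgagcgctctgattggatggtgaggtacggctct
Asns, chr6:7693160-7693459, minus strand: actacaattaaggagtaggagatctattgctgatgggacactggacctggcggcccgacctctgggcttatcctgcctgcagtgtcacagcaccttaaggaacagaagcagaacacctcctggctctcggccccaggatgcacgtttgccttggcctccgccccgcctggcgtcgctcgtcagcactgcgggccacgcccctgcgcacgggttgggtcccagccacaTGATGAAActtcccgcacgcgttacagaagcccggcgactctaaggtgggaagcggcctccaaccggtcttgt
Trib3, chr2:152344011-152344310, minus strand: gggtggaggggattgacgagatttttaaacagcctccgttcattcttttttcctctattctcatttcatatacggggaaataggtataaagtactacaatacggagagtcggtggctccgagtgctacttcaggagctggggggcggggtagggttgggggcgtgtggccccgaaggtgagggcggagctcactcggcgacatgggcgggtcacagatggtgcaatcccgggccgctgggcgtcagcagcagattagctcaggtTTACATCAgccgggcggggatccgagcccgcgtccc
Chac1, chr2:119350992-119351291, plus strand: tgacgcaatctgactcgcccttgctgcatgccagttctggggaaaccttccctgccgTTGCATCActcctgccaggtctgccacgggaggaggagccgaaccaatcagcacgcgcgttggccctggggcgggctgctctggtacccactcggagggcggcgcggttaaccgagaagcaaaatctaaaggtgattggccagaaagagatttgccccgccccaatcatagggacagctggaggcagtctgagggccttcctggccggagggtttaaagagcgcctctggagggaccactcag
In Aars the 2 matches began 112 bases before the start and at base 10 after it. In Asns the match began 23 bases before the start, in Chac1 193 bases before it, and in Trib3 at base 15 after it. A match is a run of letters and was not tested for binding.

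The muscle samples carried all 8 fibre markers examined, with summed intensities of 139817 to 205177 in JA16 samples and 139594 to 175578 in Saline samples. Same-numbered samples deviated together, and every test below compares JA16 with Saline within these pairs (limma with the replicate number as a block, Benjamini-Hochberg over 11200 genes). The arrays fall into 2 sets by how much brighter the 3' than the 5' beta-actin control probe set was. On the log2 scale this ratio was 0.48 to 0.64 on all arrays of replicates 7 to 10, JA16 and Saline alike, while those of replicates 1 to 6 lay between 1.33 and 1.84. The same ratio of the Gapdh control overlapped between the sets, at 0.18 to 0.32 in replicates 7 to 10 and 0.21 to 0.41 in 1 to 6. Single samples held high values of markers of other cells. The T cell marker Cd3e was at 1249 in JA16 replicate 1 and 710 in JA16 replicate 10, and at 93.3 or less in every Saline sample. The macrophage marker Adgre1 was at 1591 in Saline replicate 7. Summed leukocyte markers, 8 of 8 measured, ran from 5626 to 20852 in JA16 and from 6323 to 23632 in Saline samples. Summed fat markers, 3 of 5 measured, ran from 4692 to 18463 in JA16 and from 7079 to 11413 in Saline samples.

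With 1 probe set per gene, the one with the highest mean, none of the 33 genes passed the adjusted p threshold of 0.05. The count was 0, against 31 of all 11200 genes, or 0.277% (0.152% higher and 0.125% lower), and adjusted p-values in limma ran from 0.253 to 0.983. At an unadjusted p under 0.05 there were 4, Aars, Farsa and Shmt2 with higher and Chac1 with lower values in JA16, which is 12.1% of the set against 16.2% of all genes (7.49% higher and 8.76% lower). That share is near the background. With every probe set tested on its own, an alternative chosen after the values were seen, 1 of 65 probe sets of these genes passed, the second one of the transporter gene Slc38a4, against 0.231% of 19466 probe sets. In the fit without the replicate block 0 of the 33 passed the adjusted threshold too, against 0.0357% of all genes, and 1, Chac1, had an unadjusted p under 0.05, against 2.65%. The count of 4 moved with single pairs, to 0 without pair 8, to 1 without pair 4, and to 2 without pair 2 or without pair 5. In 8 of 10 pairs the JA16 array had the lower beta-actin ratio (mean difference -0.13 on the log2 scale, exact two-sided sign-flip permutation p = 0.0645), and with it as a covariate the count was 0. Its part in the result was not tested further.

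The fitted log2 fold changes (JA16 minus Saline) were small. Their median was 0.050, against -0.016 over all genes tested, and 22 of the 33 were above 0, against 45.8% of all genes. With each array centred on its median, 28 of the 33 were above 0 and 61.3% of all genes were, and the distance between both medians was 0.065 in either scaling. The sign counts therefore depend on the scaling, and no test was applied to them, since the genes were chosen with results of these samples known. The median over the set was above 0 in 6 of 10 pairs and ran from -0.048 in pair 2 to 0.15 in pair 7.

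The 95% interval of the log2 fold change lay between -0.5 and 0.5, a 1.41-fold change, for 28 of the 33 genes, against 72.6% of all genes tested. For the 19 cytosolic synthetases every interval lay between -0.40 and 0.46. The exceptions were Slc7a5, Asns, Psat1, Trib3 and Chac1, whose intervals reached past one of these bounds. Slc38a4 is counted among the 28 by its brighter probe set, and the interval of its second one, 0.35 to 0.81, lay mostly above 0.5. The distance from the fitted value to its bound ran from 0.098 to 0.59 with a median of 0.18. The plot of paired changes shows the 10 pairs of each gene.

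**Figure D1:**
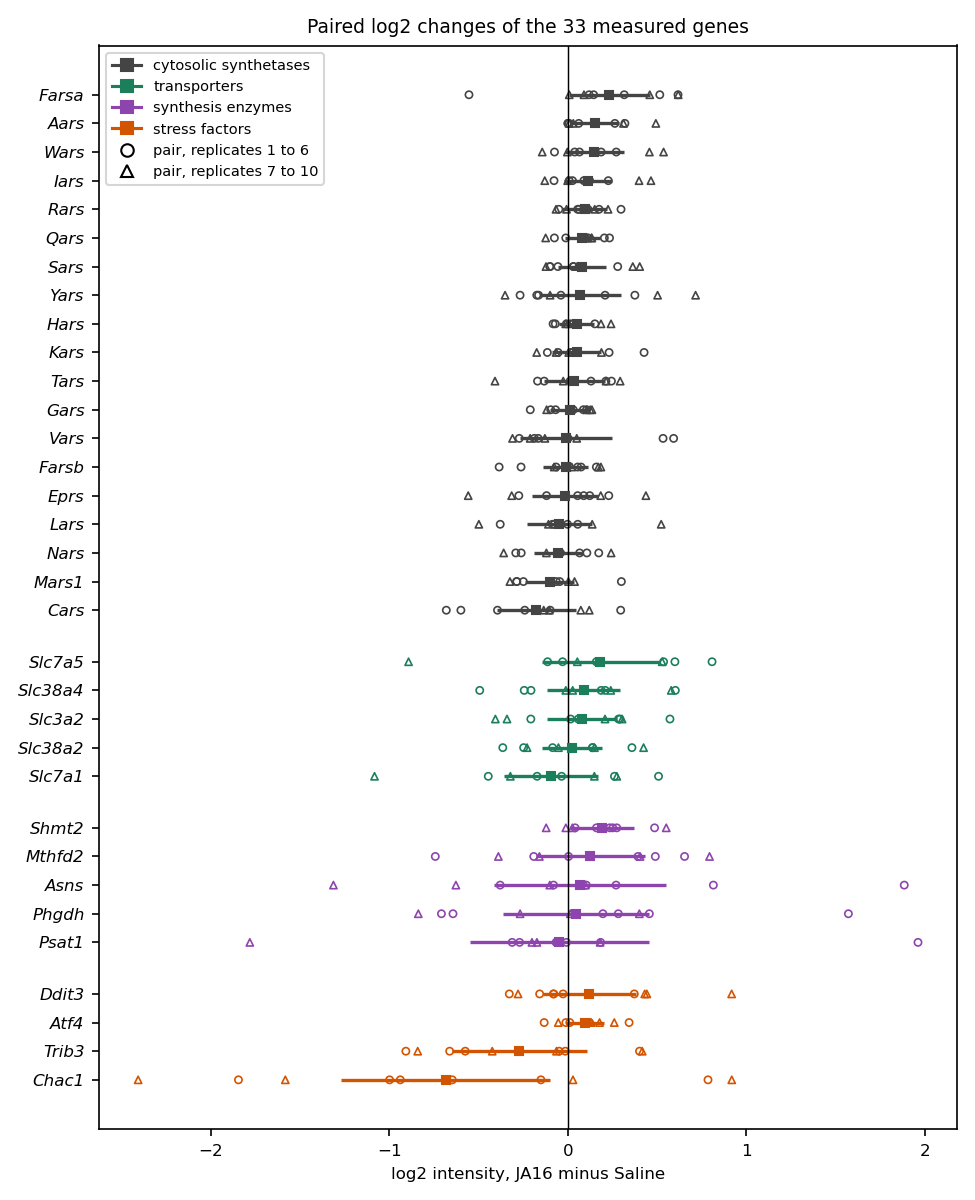
Paired log2 changes, JA16 minus Saline, for the 33 measured genes, in groups by role. Open circles are pairs of replicates 1 to 6, open triangles pairs of replicates 7 to 10, and squares with bars the fitted log2 fold change with its 95% interval. Synthetase intervals lie between -0.40 and 0.46, while pairs of Asns, Psat1, Phgdh and Chac1 spread widely.

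Among the cytosolic synthetases 12 of 19 were higher and 7 lower in JA16, with a median of 0.049, and 0 passed. Aars, the alanyl-tRNA synthetase, had its lowest value at 2049, its median at 2937 and its highest at 4882 in JA16 samples, against 1650, 2702 and 4121 in Saline samples. The groups overlapped, yet the JA16 sample was the higher one in all 10 pairs, by between 0.00080 and 0.49 on the log2 scale. In pairs 1, 3, 4 and 9 it was barely so, by 0.0079, 0.0008, 0.0017 and 0.0077. The log2 fold change of Aars was 0.15 (SE 0.063, limma adjusted p = 0.268), a 1.11-fold difference. Both of its probe sets were higher on average, the one not chosen in 7 of 10 pairs. Farsa, the catalytic subunit of phenylalanyl-tRNA synthetase, lay at 735, 1102 and 1498 in JA16, against 651, 873 and 1588 in Saline samples (lowest, median, highest). It was higher in JA16 in 9 of 10 pairs, and the exception was pair 2, in which the Saline sample held the highest value of all. The log2 fold change was 0.23 (SE 0.11, limma adjusted p = 0.296), and 2 of its 4 probe sets were higher, with the 3 not chosen all dim, at JA16 means of 83.0 or less. The mean of all 4 gave -0.11 (SE 0.15). Its partner Farsb, the other subunit of the same enzyme, was at -0.012 (SE 0.060), with 3 of 4 probe sets higher.

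The fold differences of the other synthetases ran from 0.89 for Cars to 1.11 for Wars. Wars, for tryptophan, was at 0.15 (SE 0.078), Iars, for isoleucine, at 0.11 (SE 0.064), Rars, for arginine, at 0.096 (SE 0.059) and Qars, for glutamine, at 0.081 (SE 0.046), each higher in JA16 in 7 of 10 pairs. Lower values were those of Cars, for cysteine, at -0.18 (SE 0.10), Mars1, for methionine, at -0.10 (SE 0.065), Nars, for asparagine, at -0.053 (SE 0.063) and Lars, for leucine, at -0.048 (SE 0.085). Cars was lower in JA16 in 7 of 10 pairs. Eprs, a fusion of the glutamyl and prolyl enzymes, Farsb, the glycyl enzyme Gars and the valyl enzyme Vars lay between -0.014 and 0.010. Hars, Kars, Sars, Tars and Yars, for histidine, lysine, serine, threonine and tyrosine, lay between 0.038 and 0.079. The 5 synthetases with a promoter match ran from Gars at 0.010, which turned to -0.0002 with quantile normalization, to Aars at 0.15, and the other genes with a match, Asns, Trib3 and Chac1, were at 0.068, -0.27 and -0.68.

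**Figure D2:**
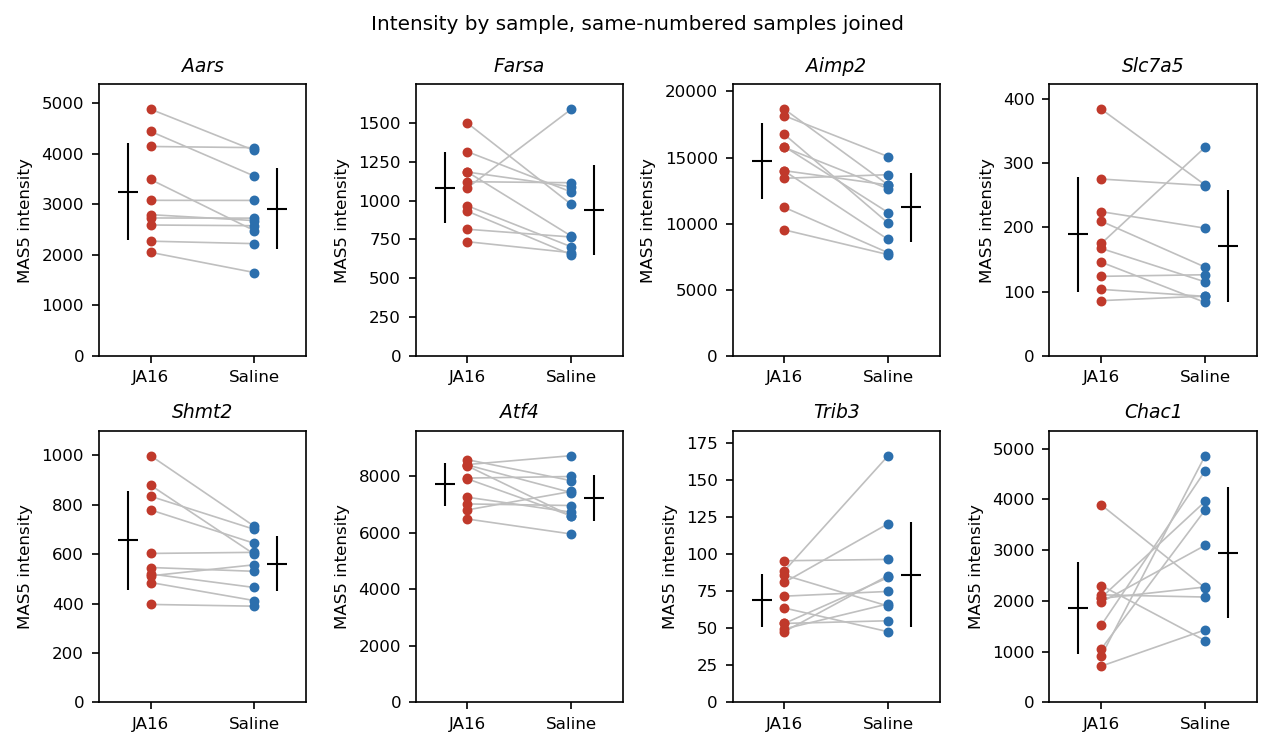
MAS5 intensity of 8 genes in each JA16 sample (left, red) and Saline sample (right, blue), with lines between same-numbered samples and mean ± SD beside each group (n = 10). The groups overlap for every gene shown, all JA16 samples of Aars lie above their Saline partners, and Chac1 is lower in JA16 in 7 of 10 pairs.

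Between the array sets 4 genes did not overlap, all of them among the 19 cytosolic synthetases. Each way the share over the 33 genes was near that of all genes. The sets did not overlap either for the mitochondrial synthetase genes Iars2, Lars2 and Yars2. The same held for Aimp1, Aarsd1 and Dtd1, from a list of synthetase partners and tRNA proofreading genes. Cars averaged 1010 in JA16 and 1018 in Saline samples of replicates 7 to 10, and 269 in JA16 and 322 in Saline samples of replicates 1 to 6. Hars, the histidyl enzyme, ran the other way, at 3076 in JA16 and 2850 in Saline samples of replicates 7 to 10, and 8773 in JA16 and 8723 in Saline samples of replicates 1 to 6. The 2 sets did not overlap for Cars and Rars, higher in replicates 7 to 10, nor for Hars and Farsb, lower there, that is 2 of 33 genes each way, against 5.54% and 6.04% of all genes. The sets are defined by the beta-actin ratio, and its part in these level differences was not tested. The pairs lie within the sets, so that the block removes the split from the comparison of JA16 with Saline. Of the 33 genes 18 had the same sign of change in both sets, and 1, Asns, differed between the sets at an unadjusted p under 0.05, against 2.68% of all genes. Its log2 fold change was -0.49 over the pairs of replicates 7 to 10, against 0.44 over those of 1 to 6. After adjustment 0 of all genes differed between the sets (limma, adjusted p of Asns 0.9995).

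**Figure D3:**
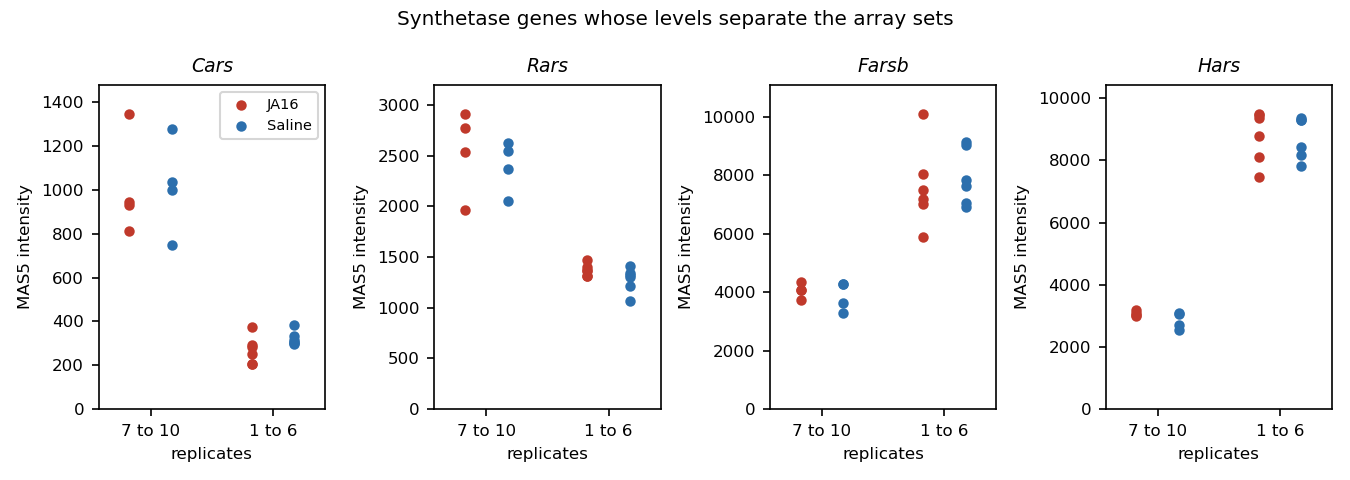
MAS5 intensity of 4 synthetase genes in JA16 (red) and Saline (blue) samples, by array set (replicates 7 to 10, left, and 1 to 6, right). Cars and Rars are higher and Farsb and Hars lower in replicates 7 to 10 in both groups, with no overlap between the sets.

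Of the partners of the synthetases, Aimp2 rose. It encodes a scaffold protein that holds a group of synthetases together in the multisynthetase complex. Its intensities were 9529, 14883 and 18655 in JA16 samples and 7658, 11739 and 15068 in Saline samples (lowest, median, highest), with means of 14732 ± 2898 in JA16 and 11240 ± 2594 in Saline samples (SD, n = 10). The JA16 sample was the higher one in 9 of 10 pairs, and both probe sets were higher. The log2 fold change was 0.40 (SE 0.068, limma adjusted p = 0.0207), 1.32-fold with a 95% interval of 1.19 to 1.46, with 0.46 (SE 0.087) for the pairs of replicates 7 to 10 alone, and 0.36 (SE 0.089) for those of 1 to 6. The call was lost without the replicate block (limma adjusted p = 0.9998) and without pair 4, 6, 7 or 8 (limma adjusted p up to 0.0849). The other scaffolds were Eef1e1 at 0.21 (SE 0.098, limma adjusted p = 0.304) and Aimp1 at 0.035 (SE 0.061). The list, of synthetase partners and tRNA proofreading genes, also held Tarsl2, Aarsd1, Dtd1 and Prorsd1, at -0.1065, -0.0265, 0.080 and 0.0595. Of its 7 genes 1 passed, higher, against 0.152% of all genes.

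The mitochondrial synthetases, which charge tRNAs inside the organelle, were counted beside the cytosolic ones. Of 16 measured, 14 had higher values in JA16 (median 0.15), against 45.8% of all genes, and 0 passed. At an unadjusted p under 0.05 in limma there were 3, or 18.75%, all of them higher. Of all genes 16.2% were under that level, 7.49% higher and 8.76% lower. The signs were 14 of 16 with quantile normalization and with centred medians too, against 51.2% and 61.3% of all genes higher. No test was applied to these counts. Yars2 was at 0.22 (SE 0.074, limma adjusted p = 0.2), with means of 2034 ± 803 in JA16 and 1778 ± 767 in Saline samples (SD, n = 10). Ears2 was at 0.29 (SE 0.11, limma adjusted p = 0.24), with 1 of 4 probe sets higher, the one used here. The only negative values were those of Iars2 and Rars2.

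Among the transporters 4 of 5 were higher and 0 passed by the probe set with the highest mean. Slc7a5, which imports leucine and other large neutral amino acids, lay at 86.1, 171 and 384 in JA16 and at 83.3, 132 and 325 in Saline samples (lowest, median, highest). The log2 fold change was 0.18 (SE 0.15, limma adjusted p = 0.565), higher in JA16 in 7 of 10 pairs. Its glycoprotein partner Slc3a2 was at 0.079 (SE 0.092), also in 7 of 10 pairs. Slc38a4, a sodium-coupled carrier of neutral amino acids, lay at 2431, 4971 and 6513 in JA16 and at 3105, 4136 and 5036 in Saline samples. Its log2 fold change was 0.090 (SE 0.096, limma adjusted p = 0.66), and the JA16 samples spanned the wider range on both sides. The second Slc38a4 probe set gave a larger difference. It lay at 1913, 2948 and 4146 in JA16 and at 1592, 1845 and 2633 in Saline samples, and the JA16 sample was the higher one in all 10 pairs. Its log2 fold change was 0.58 (SE 0.11), 1.498-fold with a 95% interval of 1.28 to 1.76 (limma adjusted p = 0.0401 over all probe sets). That call was lost without the replicate block (limma adjusted p = 0.439) and held in 2 of the 10 fits that left out 1 pair (limma adjusted p from 0.025 to 0.121). The mean of both probe sets gave 0.34 (SE 0.087, limma adjusted p = 0.18). Both were higher in JA16 on average, the size differed between them, and why they differ was not tested. Slc38a2, which is induced by amino acid shortage in many cells, was at 0.024 (SE 0.078), and the arginine and lysine carrier Slc7a1 at -0.095 (SE 0.12).

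Other amino acid transporters, from a list of 17, gave 4 higher and 12 lower of 16 tested, and 0 passed, with a median of -0.067. With centred medians the split was 8 and 8. Slc43a2, a second carrier of large neutral amino acids, was at -0.36 (SE 0.12, limma adjusted p = 0.205), at 765 ± 287 in JA16 and 941 ± 142.5 in Saline samples (SD, n = 10), with 1 of 3 probe sets higher. Slc36a4 was at -0.31 (SE 0.13, limma adjusted p = 0.266).

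Of the enzymes of asparagine, serine and folate metabolism 4 of 5 were higher, and 0 passed. Shmt2, the mitochondrial enzyme that passes a carbon from serine to folate, lay at 396, 574 and 998 in JA16 and at 389, 578 and 712 in Saline samples (lowest, median, highest). The medians were close, and the 4 highest JA16 values exceeded every Saline value. It was higher in JA16 in 8 of 10 pairs and in all 4 probe sets, and its log2 fold change was 0.19 (SE 0.084, limma adjusted p = 0.292). Mthfd2, the next enzyme of the mitochondrial folate pathway, lay at 258, 386 and 581 in JA16 and at 201, 337 and 761 in Saline samples. Its log2 fold change was 0.13 (SE 0.14, limma adjusted p = 0.685), in 6 of 10 pairs.

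Single samples set the spread of the other 3 enzymes. Phgdh, the first enzyme of serine synthesis, was at 2174 in JA16 replicate 1, and the next JA16 value was 479. Psat1, the second step, was at 1139 in that sample, with the next at 413, and Asns at 1250, with the next at 422. The same sample held the highest values of the fat markers Adipoq (6614, against 1508 or less in Saline samples) and Lep (256, against 106 or less), and of Cd3e. In Saline replicate 7, Psat1 was at 811, with the next Saline value at 433, beside the highest values of the macrophage markers Cd68 (2025), Lyz2 (13131) and Adgre1. The leukocyte marker Ptprc had its highest Saline value there too (1091). Csf1r, of the same marker list, did not. It averaged 2775 in Saline samples of replicates 7 to 10, against 5368 in those of 1 to 6, where its highest Saline value (7717) lay. The part of these cells in the enzyme values was not tested. Fitted over all pairs, the log2 fold changes were 0.047 (SE 0.19) for Phgdh, -0.048 (SE 0.23) for Psat1 and 0.068 (SE 0.23) for Asns. Their signs turned with single pairs. Phgdh was at -0.12 without pair 1, Psat1 at 0.14 without pair 7, and Asns at -0.13 without pair 1 and at -0.015 without pair 5. With pairs 1, 7 and 10 left out, an alternative chosen after the values were seen, 0 of the 33 genes passed and 23 were higher.

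**Figure D4:**
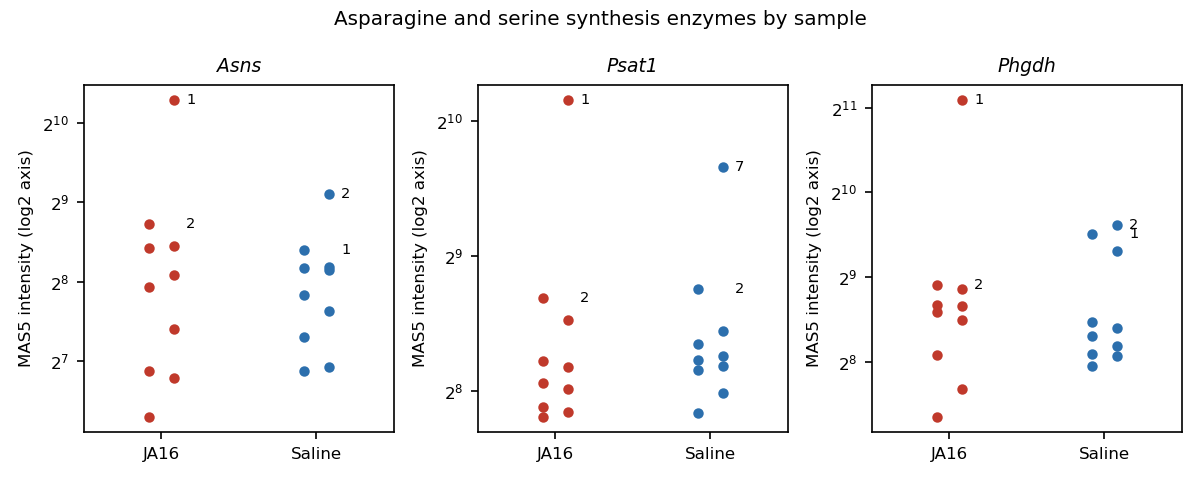
MAS5 intensity (log2 axis) of Asns, Psat1 and Phgdh in JA16 (left, red) and Saline (right, blue) samples, with the replicate number beside the 2 highest of each group. JA16 replicate 1 holds the highest value of all 3 genes, and Saline replicate 7 the highest Saline value of Psat1.

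From the list of other amino acid and folate enzymes, 10 of 14 tested were higher and 0 passed. Gpt, an alanine aminotransferase that moves amino groups between alanine and glutamate, was at 667 ± 187 in JA16 and 528 ± 152 in Saline samples (SD, n = 10). It was higher in JA16 in 8 of 10 pairs and in both probe sets, with a fitted value of 0.34 on the log2 scale (SE 0.10, limma adjusted p = 0.175). The other gene for this activity, Gpt2, was far brighter, with means of 14400 in JA16 and 13919 in Saline samples. Its log2 fold change was 0.049 (SE 0.048, limma adjusted p = 0.625). Cth, which makes cysteine and is a known ATF4 target, was dim, at 75.5 ± 26.3 in JA16 and 107 ± 26.1 in Saline samples, and lower in JA16 in 8 of 10 pairs (log2 fold change -0.55, SE 0.20, limma adjusted p = 0.224). Genes of branched-chain amino acid breakdown, the main muscle route for leucine, isoleucine and valine, were higher for 7 and lower for 11 of 18, and 0 passed. Bckdhb, a subunit of the dehydrogenase complex of that route, was at -0.21 (SE 0.081, limma adjusted p = 0.239), and Ppm1k, the phosphatase that activates the complex, at -0.30 (SE 0.13, limma adjusted p = 0.269). Hibadh and Auh of this list were higher, at 0.127 (SE 0.0536, limma adjusted p = 0.272) and 0.152 (SE 0.0705, limma adjusted p = 0.303). With centred medians the split of the list was 9 and 9.

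Of the stress factors 2 were higher and 2 lower, and 0 passed. Chac1, which degrades glutathione and is induced downstream of ATF4, lay at 715, 2012 and 3889 in JA16 and at 1217, 2683 and 4859 in Saline samples (lowest, median, highest). Its spread within each group was wide, with means of 1861 ± 909 in JA16 and 2951 ± 1291 in Saline samples (SD, n = 10), and the groups overlapped over most of their range. It was lower in JA16 in 7 of 10 pairs, with paired changes from -2.41 to 0.92. The log2 fold change was -0.68 (SE 0.27, limma adjusted p = 0.253), 0.623-fold with a 95% interval of 0.415 to 0.935, with -0.76 over the pairs of replicates 7 to 10 and -0.63 over those of 1 to 6. Without any 1 pair it ran from -0.86 to -0.49. Trib3, a pseudokinase that restrains ATF4 and Akt, was dim, at 69.1 ± 17.9 in JA16 and 86.3 ± 35.2 in Saline samples, and was lower in 8 of 10 pairs (log2 fold change -0.27, SE 0.18, limma adjusted p = 0.451).

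Atf4 itself varied little between samples, at 6492, 7926 and 8591 in JA16 and at 5961, 7198 and 8734 in Saline samples (lowest, median, highest). It was higher in JA16 in 7 of 10 pairs, at 0.096 (SE 0.050, limma adjusted p = 0.353). All 3 probe sets were higher on average. However, 1 of them was dim, with means of 22.8 in JA16 and 12.1 in Saline samples, and higher in only 5 of 10 pairs. ATF4 is controlled mainly through translation, which the arrays do not measure. Ddit3, which encodes the stress factor CHOP, was at 0.12 (SE 0.12, limma adjusted p = 0.635), higher in JA16 in only 4 of 10 pairs, and its 2 probe sets had opposite signs.

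Of the eIF2 kinases and other stress response genes 5 were higher and 12 lower of 17 tested, with a median of -0.096, and 0 passed. The split was 6 and 11 with quantile normalization and with centred medians. Nupr1, a stress-induced chromatin protein, was at -0.33 (SE 0.12, limma adjusted p = 0.223), at 1182 ± 372 in JA16 and 1467 ± 445 in Saline samples (SD, n = 10), and both probe sets were lower. Eif2ak3, the eIF2 kinase of the endoplasmic reticulum, was at -0.41 (SE 0.17, limma adjusted p = 0.255), with 1 of 3 probe sets higher, and Eif2ak4, the kinase that senses uncharged tRNA, at -0.096 (SE 0.19). Beside these lower values, markers of other cells were lower too, for all 4 tested nerve and Schwann cell markers (median -0.69, summed intensities of 1667 to 7591 in JA16 and 2689 to 8250 in Saline samples), 6 of 7 fibroblast and tendon markers (19871 to 47971 in JA16 and 29059 to 47467 in Saline samples) and 6 of 7 endothelial and mural markers (9760 to 13598 in JA16 and 11080 to 14072 in Saline samples). Of these markers 0 passed, and of all 11200 genes tested 6068 were lower. The part of these cells was not tested, and fewer cells of a type and less RNA per cell cannot be told apart in whole muscle.

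**Figure D5:**
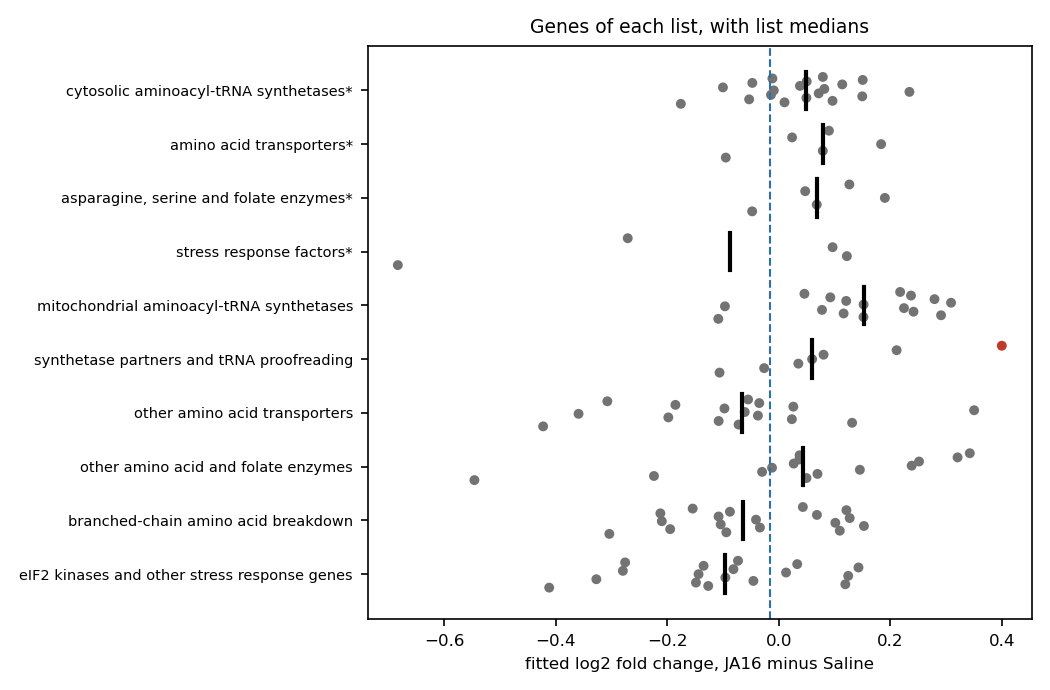
Fitted log2 fold changes (JA16 minus Saline) of the genes tested in each list, 1 point per gene, with list medians as black bars and the median of all genes tested (-0.016) as a dashed line. Asterisks mark the lists that make up the 33 genes, and the red point is Aimp2, the only gene shown with an adjusted p under 0.05.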

How the data were processed

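The deposited intensities are linear. MAS5 is named in the submitters' processing notes, without a version. They were scaled to one trimmed mean per array, as the deposited intensities show: the mean without the lowest and highest 2% of probe sets was 500.0 on each array. Array medians ran from 38.9 to 77.1. Detection calls were not used here, and the number of arrays limits the precision.

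Values at or below 0 (5 values) were set to 0.1 and log2 was taken. Probe sets with 1 annotated gene and a mean log2 intensity over all 20 samples of at least 5.65, the median of all 45101 probe sets, were kept, and the brightest of them by that mean stood for its gene (11200 genes). No symbol changed in a check by gene identifier against RefSeq (GRCm38.p6), and 34741 of 34945 single-gene probe sets matched. JA16 was compared with Saline in limma 3.58.1 (R 4.3.3; lmFit, eBayes with an intensity trend, two-sided), with the replicate number as a block, Benjamini-Hochberg adjustment over all 11200 genes and a threshold of 0.05. The fit was tested on simulated data. The replicate numbers come from the labels, and array numbers are adjacent within each. Within each number the Saline array has the lower array number, and array order and treatment cannot be told apart there. Deviations of same-numbered samples correlated, with r from 0.377 to 0.786 over the 10 pairs, and the median r of samples with different numbers was -0.108. By this measure 5 of 10 JA16 and 6 of 10 Saline samples were closest to their own number. Samples with different numbers include those of different array sets, and the part of the sets in these correlations was not tested. Alternatives were no block, quantile normalization, centred medians, an offset of 16, no filter, other probe set choices, no trend, the beta-actin ratio as a covariate, each array set alone and each pair left out, and, added later, pairs 1, 7 and 10 left out and every probe set tested on its own.

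Genes described in full are those with an unadjusted p under 0.05 and, in each role, the 2 with the smallest p and the 1 with the largest change, and from the other lists those past the threshold or with an unadjusted p under 0.01 and the 2 with the smallest p. The choice of any other gene named followed a look at its values. The members, lists and motif were chosen with earlier results of these data known. Summaries used pandas 2.3.3, and plots matplotlib 3.10.9.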

Additional observations from a re-analysis of the deposited data

Results flagged for a closer look

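In 6 of the 66 groups of 10 samples examined, the highest or lowest sample stood apart from the nearest other sample by more than Dixon's 95% limit for the gap over the range on the log2 scale. Chance alone flags about 1 group in 20, or 3.3 of 66. Phgdh in JA16 replicate 1 was at 2173.6, and the next value was 479. Psat1 in the same sample was at 1139.3, with the next at 413. Psat1 in Saline replicate 7 was at 810.5, with the next at 433. Vars in Saline replicate 8 was at 392.3, with the next at 232, Slc3a2 in Saline replicate 2 at 3124.9, with the next at 2287, and Sars in Saline replicate 7 at 2608.4, the lowest of its group, with the next at 3841.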

How the results depend on the processing

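With 1 value per gene 0 of the 33 genes passed the adjusted threshold in every setting run. With every probe set tested on its own, chosen after seeing the data, 1 gene passed, Slc38a4 by its second probe set. The count at an unadjusted p under 0.05 was 4, and became 1 without the replicate block, 2 with the mean of all probe sets of a gene, 1 with cross-matching probe sets left out, 0 with the beta-actin ratio as a covariate, 2 in replicates 1 to 6, 0 in replicates 7 to 10, 2 with pairs 1, 7 and 10 left out (chosen after seeing the data), and 0 to 5 with each pair left out. The median log2 fold change became 0.119 with centred array medians and ran from 0.0427 to 0.0754 with each pair left out, when 21 to 23 genes were higher. Of all genes, 31 passed, and 4 did so without the block, 29 with quantile normalization, 10 with centred medians, 15 with the mean of probe sets, 9 without the intensity trend, 1 with the covariate, 0 in either array set alone, 11 without pairs 1, 7 and 10, and 10 to 51 with 1 pair left out. Aimp2 lost its call without the block (limma adjusted p = 0.9998), with centred medians (0.115), without the trend (0.116), with the covariate (0.192), in replicates 1 to 6 (0.348) and 7 to 10 (0.439), and without pairs 1, 7 and 10 (0.0532). Of the genes followed over the settings only Aimp2 had passed in the main fit, so the signs say little about passing genes. The log2 fold changes whose signs turned had all missed the threshold. With centred medians these were Eprs 0.0549, Farsb 0.0575, Lars 0.0215, Nars 0.0158, Vars 0.0600 and Psat1 0.0212. With the covariate they were Eprs 0.0325, Farsb 0.0598, Kars -0.0283, Nars 0.0185, Slc3a2 -0.0354, Asns -0.221, Phgdh -0.227 and Mthfd2 -0.0605. Cross-matching probe sets left out gave Farsb 0.262 and Asns -0.0146. The mean of probe sets gave Farsa -0.106, Farsb 0.0970, Slc38a2 -0.0582, Psat1 0.0111, Phgdh -0.178 and Ddit3 -0.0068. Quantile normalization gave Gars -0.0002 and Vars 0.0596. Replicates 1 to 6 gave Eprs 0.0176, Gars -0.0250, Vars 0.0842, Yars -0.0094, Slc38a2 -0.0097, Slc7a1 0.0045, Psat1 0.249 and Ddit3 -0.0494. Replicates 7 to 10 gave Farsb 0.0759, Kars -0.0111, Lars 0.0137, Slc7a5 -0.0333, Slc3a2 -0.0581, Asns -0.485 and Phgdh -0.172. Without pairs 1, 7 and 10 Vars was at 0.0485. With 1 pair left out the ranges were -0.0646 to 0.0460 for Eprs, -0.0336 to 0.0297 for Farsb, -0.0039 to 0.0344 for Gars, -0.111 to 0.0023 for Lars, -0.0762 to 0.0241 for Vars, -0.0004 to 0.118 for Yars, -0.0209 to 0.0667 for Slc38a2, -0.162 to 0.0144 for Slc7a1, -0.134 to 0.221 for Asns, -0.271 to 0.145 for Psat1 and -0.122 to 0.145 for Phgdh. The causes were not tested. The number of arrays limits the precision, and dim probe sets such as those of Trib3 and Cth lie close to the filter.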
